A study of Mus musculus with 18 samples.

Results

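Iron handling in macrophages was examined through 10 genes that store, take up, release or control iron, namely Fth1, Ftl1, Tfrc, Steap3, Slc11a1, Slc11a2, Slc40a1, Cp, Ireb2 and Aco1. They were taken by gene symbol from an RNA-seq table of 25926 genes, and each of the 10 had 1 row. The samples were bone marrow-derived macrophages (BMDMs), cells grown from the marrow of C57BL/6J mice with M-CSF at 50 ng/mL for 7 days. They shared a Transwell plate (pore size 0.4 μm) with renal tubular epithelial cells (TECs), which were isolated from kidneys of WT mice and sat in the lower chamber. The labels give neither age nor sex of the marrow donors.

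The 18 samples formed 3 groups of 6. In NC, the BMDMs received PBS and faced TECs without crystals. In COM, the BMDMs received PBS and faced TECs exposed for 24 h to calcium oxalate monohydrate (COM), the crystal of calcium oxalate stones, at 100 μg/mL. In COM+Met, BMDMs given Met at 5.0 mM for 24 h faced COM-treated TECs. The labels do not spell out Met, and no group had Met without COM, so Met was read here on top of COM alone. Whether replicates were separate mice or cultures is not in the labels, so p-values measure the spread between these samples only.

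Macrophages recover iron from old red cells and return most of it to the circulation. Transferrin-bound iron enters through the transferrin receptor and is reduced and carried out of the endosome, while iron from digested cargo is pumped out of the phagosome. Inside the cell it is kept in ferritin, a shell of heavy and light chains, and it leaves through ferroportin, the only known cellular iron exporter. A pair of iron regulatory proteins reads the iron supply and binds hairpins in mRNAs called iron-responsive elements (IREs). Binding to a hairpin in the 5′ UTR blocks translation, and binding in the 3′ UTR protects the mRNA from decay. Protein amounts of ferritin and ferroportin therefore need not follow their mRNA, and only mRNA was measured here.

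The hairpins are shown because they are the sequences that the regulatory proteins bind. A search of the GENCODE M21 annotation of GRCm38 for an unpaired C, a stem of 5 pairs (G-T allowed) and a loop spelled CAGTGN on the transcribed strand found a match in the 5′ UTR of Fth1, Ftl1 and Slc40a1 and in the 3′ UTR of Tfrc. In the lines that follow the loop is in capitals and each sequence runs 5′ to 3′ on the strand of its gene. The positions are chr19:9982732-9982760 (plus strand) for Fth1, chr7:45459779-45459807 (minus strand) for Ftl1 and chr1:45925465-45925493 (minus strand) for Slc40a1. The 4 matches in Tfrc lie at chr16:32631219-32631247, chr16:32631598-32631626, chr16:32631663-32631691 and chr16:32631710-32631738 (plus strand).
Fth1 5′ UTR: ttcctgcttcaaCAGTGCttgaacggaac
Ftl1 5′ UTR: gtcttgcttcaaCAGTGTttgaacggaac
Slc40a1 5′ UTR: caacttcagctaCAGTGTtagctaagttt
Tfrc 3′ UTR site 1: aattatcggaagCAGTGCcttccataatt
Tfrc 3′ UTR site 2: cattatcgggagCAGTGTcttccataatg
Tfrc 3′ UTR site 3: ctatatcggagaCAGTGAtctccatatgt
Tfrc 3′ UTR site 4: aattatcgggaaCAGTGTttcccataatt
The same pattern was present in the 5′ UTR of 31 of 20661 coding genes (0.150%) and in the 3′ UTR of 144 of 21066 (0.684%). No match in the other 6 members says only that these letters were not found in this window. Likewise, the 4 matches in Tfrc need not be all of its hairpins, since one that departs from the pattern would be missed. A gene-level value also sums isoforms with and without a hairpin, as are known for Slc40a1 and Slc11a2.

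All 10 members are annotated as protein-coding genes, and their positions below are those of the whole gene on GRCm38. Values are FPKM as deposited, mapped fragments scaled to gene length and to the total of the sample, and each is given as the mean ± SD of 6 samples. Log2 fold changes are on the log2(FPKM + 1) scale with their SE, and adjusted p is from limma with the Benjamini-Hochberg correction over all genes tested. FPKM sums were 415715 to 430822 in NC, 380731 to 449186 in COM and 430165 to 441308 in COM+Met, while read depth is unknown and no counting interval could be given. Correlation between samples of a group, over 10751 genes, was 0.989 to 0.995 in COM+Met, 0.938 to 0.995 in NC and 0.888 to 0.995 in COM. COM-6 stood apart from the other COM samples, COM-4 to COM-6 differed from COM-1 to COM-3 in several members, and NC-5 and NC-6 differed from the other NC samples. The labels name no batch for these splits. The median gene had a log2 fold change of -0.27 in COM against NC and -0.26 in COM+Met against NC, so changes relative to that shift are given where they matter.

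All 10 macrophage markers, among them Adgre1, Cd68 and Csf1r, were at 1 FPKM or more in every sample, with a summed level of 11293 to 15843 in NC, 10699 to 14442 in COM and 12448 to 17186 in COM+Met. Lyz2 carried most of that sum, and the other 9 summed to 1477 to 1848, 1917 to 2789 and 2571 to 2711. In COM against NC, Adgre1 (112 to 577 FPKM), Cd14 (64.7 to 401) and Fcgr1 (8.05 to 83.7) rose, Mertk and Spi1 (210 to 139) fell, and 5 did not pass. Of 15 tubular epithelial markers, 7 to 11 were at 0 in NC samples, 9 to 12 in COM and 11 to 13 in COM+Met. Their sum was 10.9 to 18.2 in NC, at most 1.37 in COM and at most 0.332 in COM+Met. Without Cdh1, the 1 gene that carried the NC sum, it was at most 2.77, 0.419 and 0.176. The 10 stromal markers summed to 21.9 to 79.8 in NC, 6.31 to 44.7 in COM and 3.33 to 9.03 in COM+Met, and the 10 erythroid markers to at most 1.87 in any sample. Of 7 stromal markers tested in COM against NC, 4 fell (57.1%, beside 40.6% of all genes) and 2 did not pass. The other, Pdgfrb, rose (14.3%, beside 12.7%), with means of 1.06 in NC, 4.81 in COM and 2.93 in COM+Met. In bulk RNA, fewer cells of a type and less RNA per cell cannot be told apart, for these lists and for every member.

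In COM against NC, 8 of 10 members passed an adjusted p of 0.05. Slc11a1, Slc11a2, Cp and Fth1 were higher, beside 12.7% of all 10900 genes tested that were higher, and Tfrc, Steap3, Aco1 and Slc40a1 were lower, beside 40.6% that were lower. With a change of at least 2-fold also required, 3 were higher (Slc11a1, Slc11a2 and Cp; background 5.99%) and 3 lower (Tfrc, Steap3 and Aco1; background 11.7%). Cp had a mean below 1 FPKM in NC and passed the filter on low values only through COM, and likewise only through COM+Met in the last comparison, so its calls are no independent support for either count. Ftl1 and Ireb2 did not pass. The members were chosen with earlier results of these data known, so their counts beside the background are descriptions and no test of the set.

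In COM+Met against COM, 1 of 10 members was higher (Slc11a2; background 5.77% of 10364 genes) and 1 was lower (Slc40a1; background 7.58%). With a change of at least 2-fold also required, Slc40a1 alone was lower (background 1.61%) and 0 members were higher (background 0.608%). The largest rise, whatever its p, was 0.70 on the log2 scale for Ftl1. In COM+Met against NC, 4 members were higher (Slc11a1, Slc11a2, Cp and Fth1; background 19.3% of 10786 genes) and 5 were lower (Tfrc, Slc40a1, Steap3, Aco1 and Ireb2; background 55.9%). At 2-fold or more these became 3 higher (background 5.66%) and 3 lower (background 13.6%). The comparisons share samples, COM in the first pair and NC in the first and the last, so their values are set side by side and no overlap between them was tested.

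**Figure D1:**
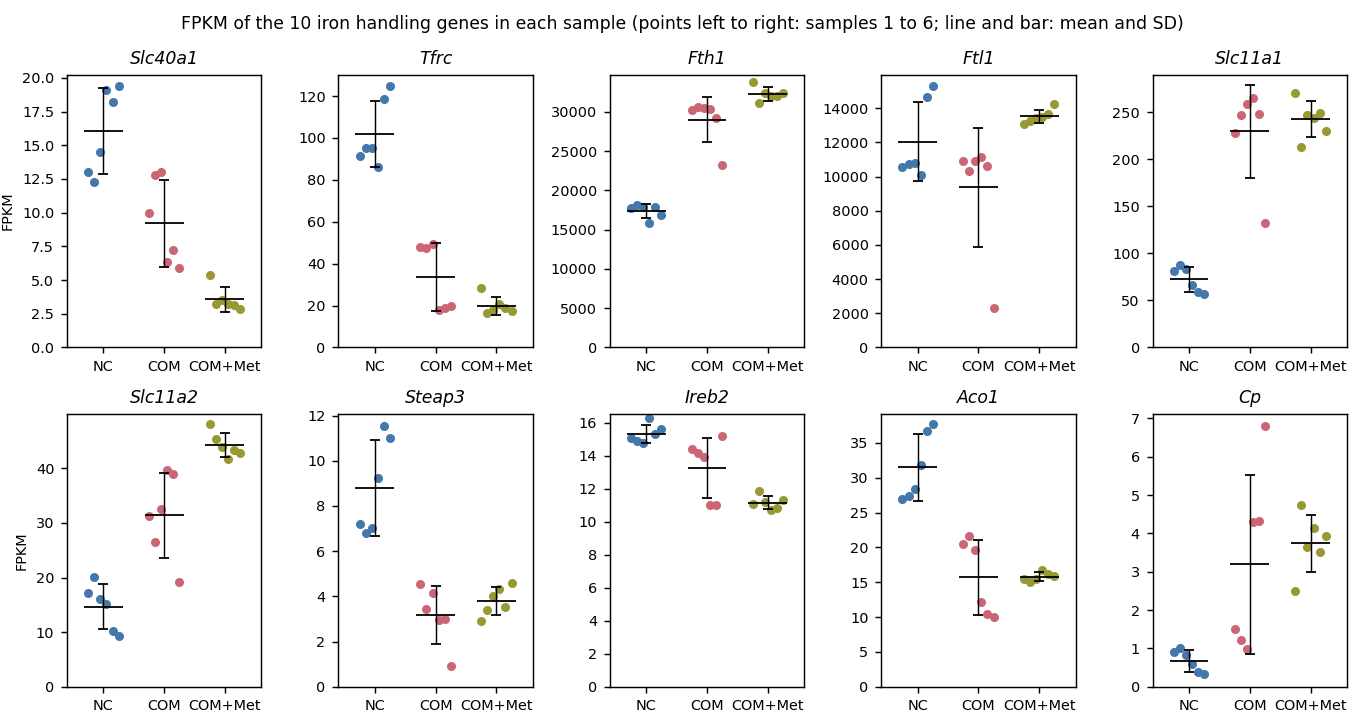
FPKM of the 10 iron handling genes in each sample, by group (NC, COM, COM+Met; 6 samples each), 1 panel a gene with its own axis from 0; points are samples, and the bar and whiskers are the mean and SD. Slc40a1 stepped down from NC (mean 16.1) through COM (9.21) to COM+Met (3.56), and Ftl1 had 1 COM sample at 2304 far below the other COM samples.

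The storage genes were the most abundant of the set. Fth1 (chr19:9980598-9985098, plus strand), the ferritin heavy chain that oxidises iron on entry, was at 15867 in the lowest NC sample, 17827 at the median and 18193 in the highest. The COM samples ran from 23190 through a median of 30295 to 30646, and the COM+Met samples from 31120 through 32232 to 33862. All COM samples lay above all NC samples, and all COM+Met samples lay above all COM samples. Mean Fth1 was 17417 ± 887 in NC, 29025 ± 2903 in COM and 32313 ± 896 in COM+Met. Its log2 fold change in COM against NC was 0.73 ± 0.15 (adjusted p = 0.00124 from limma), and 1.00 once the shift of the median gene was taken off. That call was lost with no filter on low values (adjusted p = 0.689) and with quantile normalisation (log2 fold change 0.28), which by construction gives the top-ranked gene of each sample the same value. Against NC, COM+Met changed by 0.89 ± 0.07 (adjusted p = 5.52e-08), and it too was lost with no filter (adjusted p = 0.349) and with quantile normalisation (0.27). COM+Met against COM differed by 0.16 ± 0.11 (adjusted p = 0.382), although the groups did not overlap and the two-sided exact permutation p was 0.00216, the smallest that splits of 6 against 6 can give. That exact test was run on all 30 pairs of member and comparison, and its p is unadjusted unless stated.

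Ftl1 (chr7:45457944-45459884, minus strand), the light chain that helps iron to settle in the ferritin core, did not follow Fth1 in the COM samples. NC samples ran from 10095 through a median of 10765 to 15317, COM samples from 2304 through 10748 to 11142, and COM+Met samples from 13074 through 13456 to 14221. NC-5 (14658) and NC-6 (15317) were the highest samples of the series, COM-6 was the lowest, and the other COM samples lay within the NC range. The mean was 12031 ± 2313 in NC, 9362 ± 3470 in COM and 13517 ± 403 in COM+Met. COM against NC gave a log2 fold change of -0.51 ± 0.36 (adjusted p = 0.248 from limma), and -0.14 without COM-6. Ftl1 in COM+Met was 0.70 ± 0.34 higher than in COM (adjusted p = 0.197), with no overlap between the groups and an exact permutation p of 0.00216. Without COM-6 the difference was 0.33 and passed (adjusted p = 0.00808), 1 of 3 alternatives in which it passed. COM+Met against NC gave 0.19 ± 0.11 (adjusted p = 0.138), and it passed in 5 alternatives. Among them were NC-5 and NC-6 left out (0.36, adjusted p = 0.000146) and size factors (0.45, adjusted p = 0.00274).

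Both chains together took 6.25 to 7.58% of the FPKM sum in NC, 6.70 to 9.75% in COM and 10.3 to 10.7% in COM+Met, the lowest COM value being COM-6. Fth1 per Ftl1, on the FPKM scale, was 1.10 to 1.69 in NC, 2.73 to 2.97 in COM-1 to COM-5, 10.1 in COM-6 and 2.28 to 2.59 in COM+Met. The ratio was thus lowest in NC, and COM+Met sat between NC and COM without overlapping either, a description chosen after the values were seen. Ferritin genes have near-identical copies in the genome, and how the authors' counting divided reads among them is not stated in the sources. The copy Ftl1-ps1 was at 60.6 in COM-6 and at 128 to 184 in the other COM samples, so it was low in the same sample as Ftl1.

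**Figure D2:**
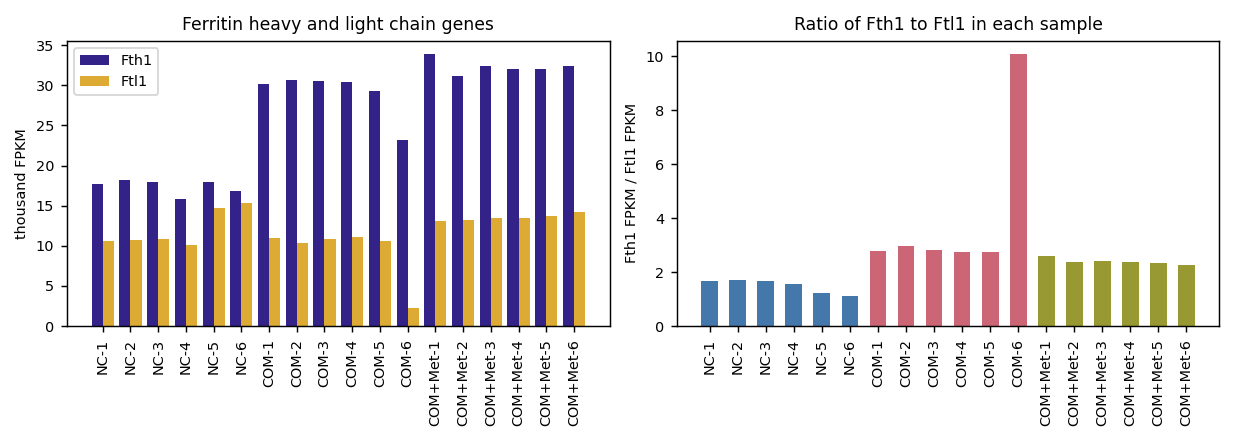
Ferritin mRNA in each of the 18 samples. The left panel has bars of Fth1 and Ftl1 in FPKM, on an axis in units of 1000 that starts at 0. The right panel has the ratio of Fth1 to Ftl1. The ratio lay at 1.10 to 1.69 in NC, 2.73 to 2.97 in 5 COM samples and 10.1 in COM-6, where the Ftl1 bar is short.

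COM-6 was also checked across 99 genes at 500 FPKM or more. Against the median of COM-1 to COM-5, Ftl1 in COM-6 was lower by a log2 difference of -2.24, the third lowest of the 99 after Slpi (-3.98) and Cyba (-2.60), while the median gene was at -0.33 and Fth1 at -0.39. In all, 22 of the 99 were at least 2-fold lower in COM-6. The source of the difference was not tested.

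Among the genes of iron uptake, Tfrc and Steap3 were lower and Slc11a1 and Slc11a2 higher in COM than in NC. Tfrc (chr16:32608920-32632794, plus strand), the transferrin receptor, was at 86.2 in the lowest NC sample, 95.2 at the median and 124.8 in the highest. COM samples ran from 17.7 through 33.7 to 49.3, and COM+Met samples from 16.6 through 18.4 to 28.2. All COM samples lay below all NC samples, but within COM the values fell into separate ranges, 47.7 to 49.3 in COM-1 to COM-3 and 17.7 to 19.7 in COM-4 to COM-6. The latter overlapped COM+Met and the former did not. Mean Tfrc was 102 ± 15.8 in NC, 33.5 ± 16.2 in COM and 20.0 ± 4.31 in COM+Met.

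The fall of Tfrc in COM was -1.71 ± 0.28 on the log2 scale (adjusted p = 0.000289 from limma), and -1.44 after that shift, and -1.05 with COM-4 to COM-6 left out (adjusted p = 8.89e-05). For COM+Met against NC it was -2.30 ± 0.13 (adjusted p = 4.64e-09), and the mean FPKM was 5.10-fold lower. Between COM+Met and COM the difference of -0.59 ± 0.28 did not pass (adjusted p = 0.188). With COM-4 to COM-6 left out it was -1.25 and passed (adjusted p = 1e-05), so the place of Tfrc in COM relative to COM+Met rested on which COM samples were used. Beside Tfrc, 10 cell division genes summed to 205 to 428 FPKM in NC, 12.6 to 29.3 in COM and 17.4 to 19.5 in COM+Met. Of these, 10 of 10 were lower in COM and in COM+Met than in NC, beside 40.6% and 55.9% of all genes tested. Ccnb1, Ccnb2, Birc5, Ube2c, Aurka and Plk1 had means below 1 FPKM in COM and COM+Met, and Top2a and Aurkb in COM+Met. There they passed the filter only through NC, so they are no independent support for those counts. The part of the cell division genes in the Tfrc difference was not tested.

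Steap3 (chr1:120190757-120272705, minus strand), the ferrireductase that reduces endosomal iron delivered by transferrin, moved in the same direction as Tfrc in both comparisons with NC. NC samples ran from 6.82 through 8.22 to 11.5, COM samples from 0.926 through 3.24 to 4.55, and COM+Met samples from 2.90 through 3.76 to 4.61. No COM or COM+Met sample reached the lowest NC sample, and COM-6 was the lowest of all. The log2 fold change was -1.28 ± 0.23 in COM against NC (adjusted p = 0.000642) and -1.02 ± 0.14 in COM+Met against NC (adjusted p = 1.77e-05), both from limma. Relative to the median gene these were -1.01 and -0.76, so the 2-fold call in COM+Met was not reached with that shift taken off. The difference between COM+Met and COM was 0.26 ± 0.22 (adjusted p = 0.456), and -0.082 with COM-4 to COM-6 left out, so neither order of these neighbours was shown.

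Slc11a1 (NRAMP1; chr1:74375195-74386062, plus strand), the metal pump of the phagosome membrane, was at 56.5 to 88.0 in NC with a median of 73.7. It was at 132 to 265 in COM with a median of 247, and at 213 to 270 in COM+Met with a median of 245. Every COM and COM+Met sample exceeded every NC sample, and COM-6, at 132, lay nearest to them. Mean Slc11a1 rose 3.17-fold from 72.3 ± 13.4 in NC to 229 ± 49.3 in COM on the FPKM scale, and the change on the log2 scale was 1.64 ± 0.18 (adjusted p = 1.38e-05 from limma), and 1.91 relative to the median gene. COM+Met stood at 242 ± 19.1, higher than NC by 1.75 ± 0.11 (adjusted p = 1.38e-08) and different from COM by 0.11 ± 0.16 (adjusted p = 0.685). The sign of that last difference depended on COM-6, without which it was -0.040. C57BL/6J mice are known to carry a loss-of-function allele of Slc11a1, so its mRNA level does not stand for metal transport.

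Slc11a2 (DMT1; chr15:100387898-100425072, minus strand), which carries reduced iron out of the endosome, stepped up across the groups. NC samples ran from 9.32 through 15.6 to 20.0, COM samples from 19.2 through 31.9 to 39.6, and COM+Met samples from 41.8 through 43.7 to 48.1. COM-6 (19.2) overlapped NC-2 (20.0), and COM+Met lay above every COM sample. The log2 fold change in COM against NC was 1.05 ± 0.21 (adjusted p = 0.00113 from limma), and 1.32 with the shift taken off, and in COM+Met against NC 1.57 ± 0.15 (adjusted p = 8.48e-07). COM+Met exceeded COM by 0.52 ± 0.15 (adjusted p = 0.0372) with an exact permutation p of 0.00216. This last call was narrow, since it was lost when any of COM-1 to COM-3 or any COM+Met sample was left out (adjusted p up to 0.0809), with no filter on low values (adjusted p = 0.0541) and with all 18 samples in 1 fit (adjusted p = 0.0513).

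**Figure D3:**
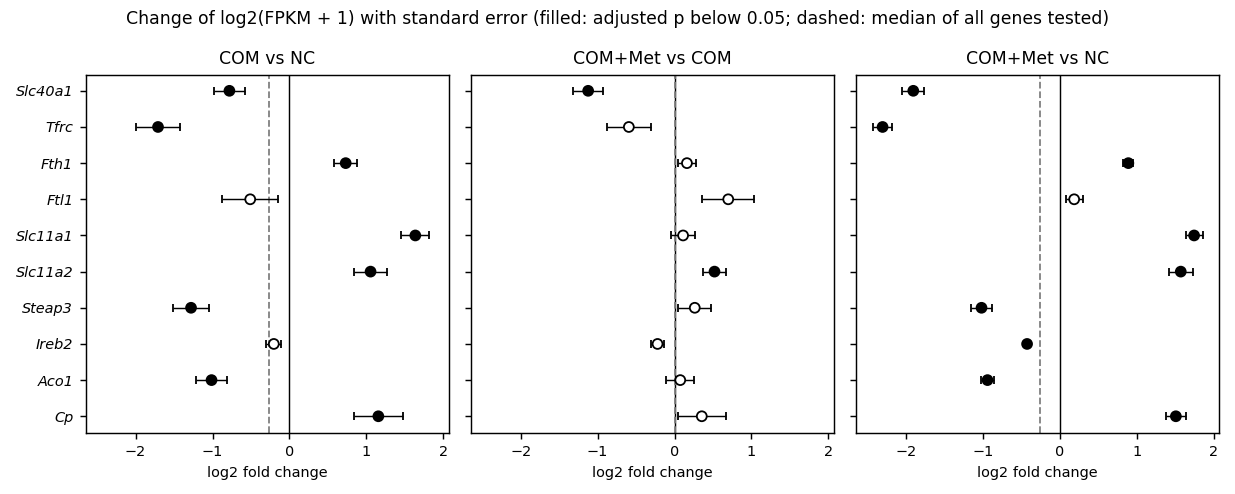
Log2 fold change (FPKM + 1) of each member with its SE, for COM against NC, COM+Met against COM and COM+Met against NC; filled points have an adjusted p below 0.05 from limma, and the dashed line is the median of all genes tested. Slc11a1 (1.64) and Tfrc (-1.71) lie at the ends in COM against NC, and Slc40a1 (-1.12) and Slc11a2 (0.52) are the filled points in COM+Met against COM.

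Of the export genes, Slc40a1 (ferroportin; chr1:45908068-45926523, minus strand) fell. Its NC samples ran from 12.3 through a median of 16.4 to 19.4, its COM samples from 5.87 through 8.60 to 13.0, and its COM+Met samples from 2.89 through 3.22 to 5.39. COM-2 and COM-3 (12.8 and 13.0) overlapped NC-1 and NC-2 (13.0 and 12.3), while COM-4 to COM-6 were at 5.87 to 7.23. All COM+Met samples lay below all COM samples. Mean Slc40a1 was 16.1 ± 3.21 in NC, 9.21 ± 3.22 in COM and 3.56 ± 0.919 in COM+Met, 4.51-fold lower at the end than at the start.

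Against NC, Slc40a1 in COM changed by -0.78 ± 0.20 on the log2 scale (adjusted p = 0.00611 from limma), and -0.51 beyond the shift of the median gene. With COM-4 to COM-6 left out this became -0.39 and did not pass (adjusted p = 0.0713), and with limma's sample weights it was -0.26 (adjusted p = 0.0715). COM+Met differed from COM by -1.12 ± 0.20 (adjusted p = 0.0031), with a mean FPKM 2.59-fold lower, and by -1.52 with COM-4 to COM-6 left out (adjusted p = 4.09e-06). This was the only member called at 2-fold between these groups. COM+Met against NC gave -1.90 ± 0.14 (adjusted p = 6.46e-08), or -1.64 relative to the median gene.

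Cp (chr3:19957054-20009145, plus strand), ceruloplasmin, the ferroxidase that assists ferroportin, had low levels throughout. NC samples ran from 0.322 through 0.702 to 1.00, COM samples from 0.981 through 2.91 to 6.80, and COM+Met samples from 2.49 through 3.79 to 4.73. COM-1 to COM-3 were at 0.981 to 1.51, close to NC, and COM-4 to COM-6 at 4.31 to 6.80. The log2 fold change was 1.16 ± 0.32 in COM against NC (adjusted p = 0.00819 from limma) and 1.51 ± 0.13 in COM+Met against NC (adjusted p = 3.7e-07), and the added 1 FPKM shrinks both. Between COM+Met and COM it was 0.35 ± 0.31 (adjusted p = 0.493), and 1.07 with COM-4 to COM-6 left out (adjusted p = 4.31e-05). With sample weights the change in COM against NC was 0.35 (adjusted p = 0.0408).

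The regulators were 2 genes. Aco1 (IRP1; chr4:40143081-40198338, plus strand), a cytosolic aconitase that turns into an RNA-binding protein when it lacks its iron-sulfur cluster, was at 26.9 to 37.8 in NC with a median of 30.04. COM samples were at 9.94 to 21.6 with a median of 15.9, and COM+Met samples at 15.0 to 16.8 with a median of 15.7. No COM or COM+Met sample reached NC. COM-1 to COM-3 (19.7 to 21.6) lay above and COM-4 to COM-6 (9.94 to 12.2) below all COM+Met samples. Aco1 changed by -1.01 ± 0.20 in COM against NC (adjusted p = 0.00111 from limma), and by -0.58 with COM-4 to COM-6 left out (adjusted p = 0.00269). It changed by -0.94 ± 0.08 in COM+Met against NC (adjusted p = 3.81e-07). Relative to the median gene, the changes in COM and COM+Met were -0.74 and -0.68. The 2-fold call in COM was thus not reached with that shift taken off. COM+Met differed from COM by 0.07 ± 0.18 (adjusted p = 0.825), which turned to -0.36 with COM-4 to COM-6 left out (adjusted p = 5.31e-05), to -0.022 without COM-5 and to -0.035 without COM-6.

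Ireb2 (IRP2; chr9:54863789-54912530, plus strand) is the regulator that is degraded when iron is plentiful. NC samples were at 14.8 to 16.3 with a median of 15.2, COM samples at 11.0 to 15.2 with a median of 14.0, and COM+Met samples at 10.7 to 11.9 with a median of 11.1. COM-4 and COM-5, at 11.0, fell within COM+Met, while COM-6, at 15.2, fell within NC. COM against NC gave -0.20 ± 0.10 (adjusted p = 0.0895 from limma; exact permutation p = 0.00866), passing without COM-6 (adjusted p = 0.0259) and turning to 0.045 with size factors and to 0.024 with quantile normalisation. COM+Met against COM gave -0.22 ± 0.09 (adjusted p = 0.122 from limma), and -0.32 with COM-4 to COM-6 left out (adjusted p = 6.8e-05). The exact permutation p for COM+Met against COM was 0.0433, and 0.0565 when adjusted over the 30 pairs of member and comparison. COM+Met against NC was -0.42 ± 0.04 (adjusted p = 4.35e-07), which is -0.16 relative to the median gene.

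Group means thus ran NC, COM, COM+Met from high to low for Slc40a1, Tfrc and Ireb2, and from low to high for Fth1, Slc11a1, Slc11a2 and Cp. Aco1 and Steap3 were highest in NC, and Ftl1 was lowest in COM. Neighbours that did not pass the limma test were COM and COM+Met for every member except Slc40a1, Slc11a2 and Ftl1, and NC and COM for Ftl1 and Ireb2. For Ftl1, whose means ran COM, NC, COM+Met from low to high, NC and COM+Met did not pass either. Nor did its ends, COM and COM+Met. A p above the threshold does not show that such neighbours were alike.

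Another 74 iron genes in 4 lists were read beside the members, of which 53 passed the filter in both comparisons with NC and 49 in COM+Met against COM. In COM against NC, 9 were higher (17.0%, beside 12.7% of all genes) and 22 lower (41.5%, beside 40.6%), so these shares lay near the background. The counts were 5 higher (10.2%, beside 5.77%) and 3 lower (6.12%, beside 7.58%) in COM+Met against COM, and 12 higher (22.6%, beside 19.3%) and 26 lower (49.1%, beside 55.9%) in COM+Met against NC. Without COM-6 the count that passed in COM+Met against COM went from 8 to 20, while over all genes the higher ones went from 598 to 1101 and the lower ones from 786 to 1652. Flvcr2, Abcg2, Ltf and Epas1 had means below 1 FPKM in COM and COM+Met and passed the filter only through NC, so they are counted as lower but are no independent support for those counts. Median log2 fold changes in COM against NC were -0.36 over the members, 0.21 over haem handling, -0.27 over mitochondrial iron, -0.34 over other transport and -0.24 over iron control, beside -0.27 over all genes.

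Of 13 haem handling genes, 11 were tested in COM against NC. There 4 rose (36.4%, beside 12.7% of all genes), 4 fell (36.4%, beside 40.6%) and 3 did not pass. Hp (haptoglobin, which binds free haemoglobin) went from 136 ± 89.3 FPKM in NC to 653 in COM, a log2 fold change of 2.62 ± 0.51 (adjusted p = 0.00102 from limma). It was at 215 in COM+Met, a change from COM of -1.55 ± 0.18 (adjusted p = 0.000283). Flvcr2, a choline and haem transporter, fell from 8.92 ± 8.31 to 0.202 (-2.65 ± 0.42, adjusted p = 0.000216), and Blvra (biliverdin reductase A) from 70.5 to 27.1 (-1.41 ± 0.22, adjusted p = 0.000176). Abcg2, an exporter of porphyrins, changed by -1.24 ± 0.22 (adjusted p = 0.000555). Hmox1, the haem oxygenase that frees iron from haem, was outside the naming rule and is given after its values were seen. It was at 314 ± 51.7 in NC, 723 ± 439 in COM and 635 ± 37.6 in COM+Met, with a change of 0.97 ± 0.35 in COM against NC (adjusted p = 0.034).

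Between COM+Met and COM, 2 of 9 tested haem genes rose, Slc46a1 (a haem and folate carrier; 0.59 ± 0.10, adjusted p = 0.00204 from limma) and Flvcr1 (a haem exporter; 0.34 ± 0.07, adjusted p = 0.00786), and 1 fell, Hp. The shares were 22.2% higher, beside 5.77% of all genes, and 11.1% lower, beside 7.58%. Against NC, 6 of 11 rose in COM+Met (54.5%, beside 19.3% of all genes) and 4 fell (36.4%, beside 55.9%). Those with the largest changes were Flvcr2 (-2.80), Abcg2 (-1.64), Blvra (-1.37) and Lrp1, the receptor of haem-haemopexin complexes (-1.24).

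Of 22 mitochondrial iron genes, 21 were tested, and 2 rose (9.52%) and 8 fell (38.1%) in COM against NC, shares near the 12.7% and 40.6% of all genes. Slc25a37 (mitoferrin 1, which imports iron into mitochondria) rose from 18.6 to 83.5, and it was at 74.5 in COM+Met. Its log2 fold change was 2.13 ± 0.18 in COM against NC (adjusted p = 1.3e-06 from limma) and 1.98 ± 0.16 in COM+Met against NC (adjusted p = 1.16e-07). Fdx1 (ferredoxin, an electron carrier) changed by -0.96 in COM against NC and rose by 0.78 in COM+Met against COM, where Hscb, a chaperone of iron-sulfur cluster assembly, rose by 0.56. Abcb10 (a transporter of the inner mitochondrial membrane) changed by -0.88 in COM and -1.25 in COM+Met against NC, and Glrx5 (a carrier of iron-sulfur clusters) by -0.82 and -0.97. Fech (ferrochelatase, which puts iron into haem) changed by -0.84 in COM+Met against NC. In that comparison 2 rose (9.52%, beside 19.3% of all genes) and 9 fell (42.9%, beside 55.9%). In COM+Met against COM 2 rose (9.52%, beside 5.77%) and 19 did not pass.

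**Figure D4:**
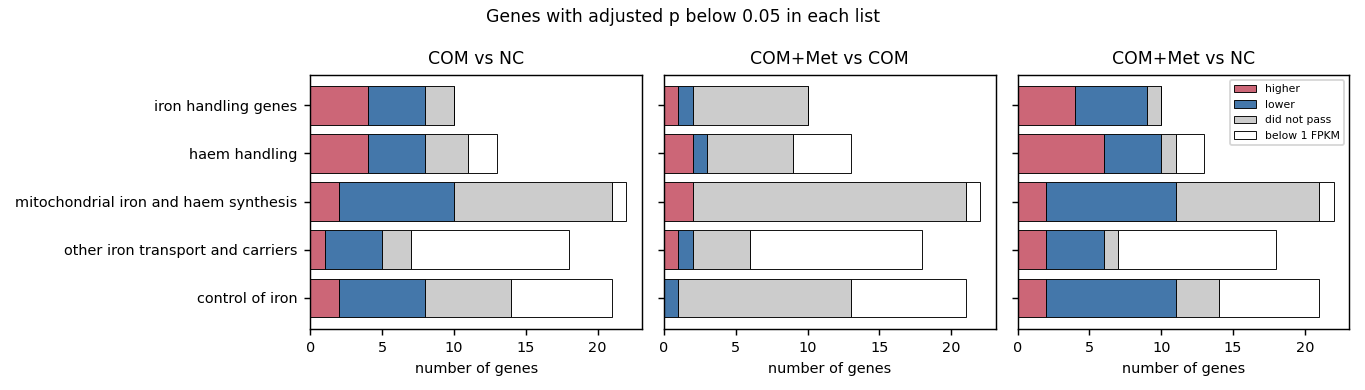
Number of genes in each of 5 iron lists (members, haem handling, mitochondrial iron, other transport, iron control) that were higher, lower, did not pass or lay below a mean of 1 FPKM, for the 3 comparisons. In COM against NC the members split 4 higher, 4 lower and 2 not passing, and the mitochondrial list 2 higher, 8 lower and 11 not passing. Of all genes tested there, 12.7% were higher and 40.6% lower.

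Of 18 other transport genes only 7 were tested in COM against NC. There 1 was higher (14.3%, beside 12.7% of all genes) and 4 lower (57.1%, beside 40.6%). Lcn2 (lipocalin 2, which captures bacterial siderophores that carry iron) rose from 23.5 in NC to 1133 in COM and was at 678 in COM+Met (log2 fold change 5.57 ± 0.39 in COM against NC, adjusted p = 2.89e-07 from limma). Lcn2 is also a neutrophil gene. The 15 neutrophil markers, Lcn2 among them, summed to 552 to 1076 in NC, 1237 to 1866 in COM and 738 to 860 in COM+Met. The 14 without Lcn2 summed to 541 to 1037, 194 to 622 and 91.0 to 149. Of the 10 tested in COM against NC, Lcn2 and Mmp9 rose (20.0%, beside 12.7% of all genes). S100a9 (171 to 8.43 FPKM), Ngp (30.9 to 1.60), Cxcr2 and Ltf fell (40.0%, beside 40.6%), and 4 did not pass. Cxcr2 and Ltf had means below 1 FPKM in COM and passed the filter only through NC. The granule genes Mpo and Elane were not tested. Their means were already low in NC (0.145 and 0.479), and they were at 0 in every COM and COM+Met sample. Trf (transferrin) fell from 100 to 40.7 in COM and 34.4 in COM+Met (-1.28 and -1.53 against NC). Ltf (lactoferrin) changed by -1.67 and -1.84, and Cd44 (a hyaluronan receptor linked to iron uptake) by -0.73 and -0.94. Between COM+Met and COM, Atp7a (a copper transporter) changed by -0.53 (adjusted p = 0.00849) and Mcoln1 (a lysosomal cation channel) rose by 0.46 (adjusted p = 0.0358). Of the 7 tested in COM+Met against NC, 2 rose (28.6%, beside 19.3% of all genes) and 4 fell (57.1%, beside 55.9%).

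Of 21 iron control genes, 14 were tested against NC. In COM 2 were higher (14.3%, beside 12.7% of all genes) and 6 lower (42.9%, beside 40.6%). In COM+Met 2 were higher (14.3%, beside 19.3%) and 9 lower (64.3%, beside 55.9%). Bach1, the haem-sensitive repressor of Hmox1 and the ferritin genes, fell from 31.9 in NC to 11.9 in COM and 10.2 in COM+Met, with log2 fold changes of -1.35 ± 0.12 (adjusted p = 2.99e-06 from limma) and -1.54 ± 0.09 (adjusted p = 7.14e-09). Furin (a protease that cleaves hepcidin and hemojuvelin precursors) went from 67.1 to 28.1 and 24.0, changing by -1.31 and -1.44. Epas1 (HIF-2α) changed by -1.65 in both, and Nedd4 (a ubiquitin ligase) by -1.04 and -0.89. Fbxl5, the iron sensor that marks Ireb2 protein for degradation, was at 28.8 ± 4.03 in NC, 40.4 ± 8.24 in COM and 26.4 ± 1.40 in COM+Met. It was the 1 control gene of 13 tested that passed between COM+Met and COM (-0.57 ± 0.13, adjusted p = 0.0113). That share was 7.69% lower, beside 7.58% of all genes.

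The genes whose centred log2(FPKM + 1) profile over the 18 samples was nearest to that of 4 members were listed by root mean square difference, out of 10324 genes. Slc40a1, whose own profile had a root mean square of 0.84, was nearest to Alox5ap (0.20), Nedd9 (0.23) and Plekhg3 (0.24). Alox5ap, the activator of 5-lipoxygenase, was at 350 FPKM in NC, 199 in COM and 104 in COM+Met. Tfrc (own value 1.06) was nearest to Cpne8 (0.20), Espl1 (0.23) and Idh1 (0.24), the last at 117, 46.2 and 26.9 FPKM. Slc11a1 (own value 0.84) was nearest to Ppfia3 (0.20), Lrpap1 (0.21) and Psme2 (0.22), and Fth1 (own value 0.40) to Uhrf1bp1 (0.11), Klhl12 (0.12) and Atp6v1e1 (0.12). Samples of a group share their condition, so these are descriptions of a profile.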

How the data were processed

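The authors deposited FPKM values per gene and sample, with replicates kept apart. Per the submitters' processing notes, Bowtie 0.12.2 was used, and mm8 and mm9 are the builds listed. The quantifier, annotation and strand setting are not stated there or in the paper. Libraries were made from total RNA with an Illumina TruSeq kit. Low values did not fall on whole-read steps, the commonest ratio being shared by 0.185 to 0.417% of genes below 0.5 FPKM, so depth was not recovered and no counting error could be set.

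Groups were taken from the sample titles. limma 3.58.1 in R 4.3.3 (eBayes with trend) was run on log2(FPKM + 1) for genes whose mean over both groups was 1 FPKM or more, with 6 samples against 6, Benjamini-Hochberg adjustment over all genes tested and an adjusted p limit of 0.05. A call also needed 2-fold. The two-sided exact test enumerated every split of the samples for 1 gene. Scripts in Python 3.11.15 (scipy 1.17.1) were tested on simulated data. UTRs came from GENCODE M21 on GRCm38, a build other than those in the notes, and only gene names link it to the values. Tf and Hjv were found as Trf and Hfe2.

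The members and lists were chosen with earlier results of these data known. All members were named, and of each other list the 4 genes at most with the largest change among those that passed in a comparison. The ferritin ratio and the check of abundant genes in COM-6 were chosen after values were seen. Alternatives were the pseudocount (0.1, 5), the filter (none, 5 FPKM), scaling (TPM, size factors, quantile normalisation), a replicate block, all 18 samples in 1 fit, sample weights (arrayWeights), each sample left out, and NC-5 and NC-6 or COM-4 to COM-6 left out.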

Additional observations from a re-analysis of the deposited data

Results flagged for a closer look

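Among the 30 sets of 6 values (10 members in 3 groups), 4 held a sample whose gap to its nearest neighbour exceeded Dixon's 95% limit for a group of 6, a limit that chance passes in about 5% of sets. Of these, 3 were in COM-6: Ftl1 at 2304 FPKM (gap 0.905 of the group's range), Fth1 at 23190 (0.810) and Slc11a1 at 132 (0.721), each the lowest COM sample. The other was Slc40a1 in COM+Met-1, the highest of its group at 5.39 FPKM (0.755). The same library accounts for the 3 COM values, so they are not independent of each other.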

How the results depend on the processing

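Of 695 log2 fold changes of single members recomputed under an alternative, 648 kept their direction and their side of the threshold, 18 no longer passed, 18 newly passed and 11 changed sign, and the cause was not tested. In COM against NC, 6 members called at 2-fold became 2 with a pseudocount of 5, 2 with sample weights and 3 with COM-4 to COM-6 left out, where Cp fell below the filter. In COM+Met against COM, 2 members with an adjusted p below 0.05 became 1 with no filter, 1 with the replicate block, 1 with all 18 samples in 1 fit, 7 with sample weights and 7 with COM-4 to COM-6 left out, and 1 to 3 when single samples were left out. The 1 member called at 2-fold there became 0 with a pseudocount of 5, 3 with sample weights and 3 with COM-4 to COM-6 left out. Signs turned in COM against NC for Ireb2 with size factors (0.045) and quantile normalisation (0.024). They turned in COM+Met against COM for Slc11a1 (sample weights -0.032, without COM-6 -0.040, COM-4 to COM-6 left out -0.012), Steap3 (-0.014 with sample weights, -0.082 with COM-4 to COM-6 left out) and Aco1 (-0.32 with sample weights, -0.022 without COM-5, -0.035 without COM-6, -0.36 with COM-4 to COM-6 left out). When single samples were left out, Slc11a1 ran from -0.040 to 0.16 and Aco1 from -0.035 to 0.17.

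Samples with the same number did not deviate together (correlation -0.222 to 0.057), so the replicate block, which left 1 member past the threshold in COM+Met against COM (Slc40a1, with Slc11a2 at an adjusted p of 0.0787), pairs samples by number only. With size factors, 48.1% of the genes called between COM and NC lay higher in COM, against 33.9% without, and for COM+Met and NC the change was from 29.4% to 43.2%. Read depth is unknown, so the precision of low values such as Cp could not be set.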
